A study of Mus musculus with 40 samples.

Results

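Neutrophils sorted from blood were compared between mice that carried colon tumors and healthy mice. The members were 8 of the 40 RNA-seq libraries of the series: 4 of tumor-bearing mice (group T_PG) and 4 of healthy mice (group WT_PG). These libraries were taken by their group labels, with earlier results of these data known. The tumor-bearing mice were Apc fl/fl with the transgene Cdx2CreERT2, in which the Cdx2 promoter, active in colon epithelium, drives a Cre recombinase that tamoxifen switches on. They had received 1 intraperitoneal dose of tamoxifen of 25 mg/kg in oil at an age of 8 to 10 weeks. Their strain was labelled C57Bl6/Sv132, C57Bl6/Sv148, C57Bl6/Sv150 and C57Bl6/Sv152 for libraries 1 to 4. The numbers in these labels rise in step with the order of the samples, so they may not name 4 different strains. The healthy mice were labelled C57Bl6, with no transgene and no agent, and the labels give no age for them. Strain, transgene, tamoxifen and tumor therefore changed together, and their parts in any difference below cannot be told apart. Tumor-bearing library 3 carries 2 animal numbers in its title, so it may pool animals, and nothing in the labels ties the other libraries to single mice, so p-values measure the spread between these libraries.

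Neutrophils mature in the bone marrow under granulocyte colony-stimulating factor (G-CSF) and fill their granules in order: azurophil granules with serine proteases and myeloperoxidase in the promyelocyte, specific granules with lactoferrin and lipocalin 2 in the myelocyte, and gelatinase granules last. Most granule mRNAs are made in the marrow and have faded by the time the cell circulates. Type I interferon induces a broad antiviral set (Ifit, Oas, Mx and Gbp families) in most cells, neutrophils included, from promoters that hold interferon-stimulated response elements.

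The cells had been gated as CD45+, EpCAM-, CD11b+, MHCII-, Ly6C-low and Ly6G+ after lysis of red cells, which makes Ly6g, the mRNA of a sort marker, no independent check. Counts on genes totaled 10716847 to 19260023 per library. Neutrophil markers dominated: the summed level of 14 defining genes, in RPKM (reads per kilobase of transcript, scaled to the mapped reads of the library), was 15899 to 20599 in the tumor-bearing and 3956 to 8875 in the healthy libraries. The summed level of 17 epithelial markers was at most 1.65 RPKM and that of 12 monocyte markers at most 22.6 RPKM in any library. Other cells left more. The 14 platelet markers summed to 243 and 256 RPKM in healthy libraries 1 and 2, against 5.81 to 49.2 RPKM in the other 6, and the 13 erythroid markers to 464 to 1071 RPKM in tumor-bearing libraries 3 and 4 and healthy libraries 1 and 2, against 4.84 to 84.7 RPKM in the rest. The 11 MHC class II genes, whose protein the gate excluded, summed to 21.4 and 25.9 RPKM in healthy libraries 1 and 2 and to at most 3.06 RPKM elsewhere. The 12 B cell markers summed to 2.37 to 7.30 RPKM in tumor-bearing and 16.8 to 32.6 RPKM in healthy libraries. Xist, expressed from the inactive X chromosome, stood at 7.35 and 6.31 RPKM in tumor-bearing libraries 3 and 4 and at 3.66 and 4.02 RPKM in healthy libraries 1 and 2, and at 0.0164 to 0.0418 RPKM in the other 4, so each group held 2 libraries of either kind. Mitochondrial genes took 9.36% to 16.8% of counts in tumor-bearing libraries, 14.5% and 11.4% in healthy libraries 1 and 2, and 5.63% and 5.34% in healthy libraries 3 and 4. S100a9 was at 2.04 to 2.77 times the RPKM of its partner S100a8 in 6 libraries, but at 0.105 and 0.190 times in tumor-bearing library 3 and healthy library 1. The part of these differences in the results below was not tested, except where values without the libraries are given.

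**Figure D1:**
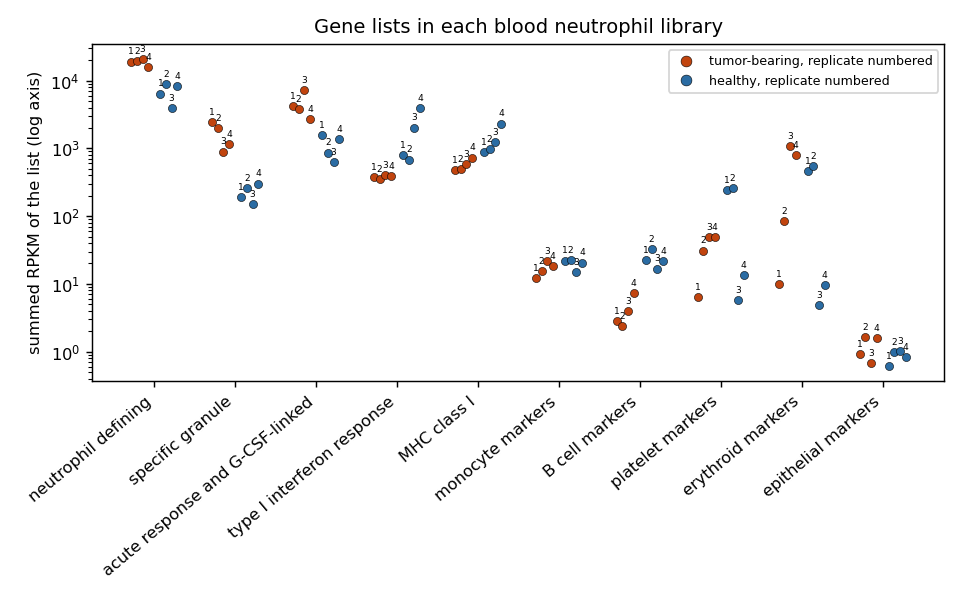
Summed RPKM (log axis) of 10 gene lists in each blood neutrophil library, 1 point per library numbered by replicate, tumor-bearing in red and healthy in blue. Specific granule genes were 893 to 2464 RPKM in the tumor-bearing and 152 to 301 RPKM in the healthy libraries, and type I interferon genes 347 to 406 RPKM and 683 to 3961 RPKM.

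In blood neutrophils of tumor-bearing mice, most listed specific granule and G-CSF-linked genes were higher and most listed interferon-inducible genes lower than in healthy mice. Of 13360 genes tested with the edgeR quasi-likelihood test, 536 (4.01%) were called, that is, passed a Benjamini-Hochberg adjusted p of 0.05 with a log2 fold change above 1.5 in size: 239 higher (1.79%) and 297 lower (2.22%) in tumor-bearing mice. The log2 fold change of all genes had a median of -0.01. Gene lists used below were written with earlier results of these data known, and no list was tested. Of the tested genes, 1888 (14.1%) had RPKM values that did not overlap between the groups, and 518 of the 536 called genes were among them. For a single gene, the smallest 2-sided p of an exact permutation test over the 70 arrangements of 4 against 4 is 0.0286. Any gene without overlap has this p by construction, so the test adds nothing to the lack of overlap. Leaving out tumor-bearing library 1, tumor-bearing library 2 or healthy library 3 lowered the calls to 145 higher and 128 lower, 150 and 130, and 129 and 130. Without healthy libraries 3 and 4 together, 125 were higher and 158 lower.

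**Figure D2:**
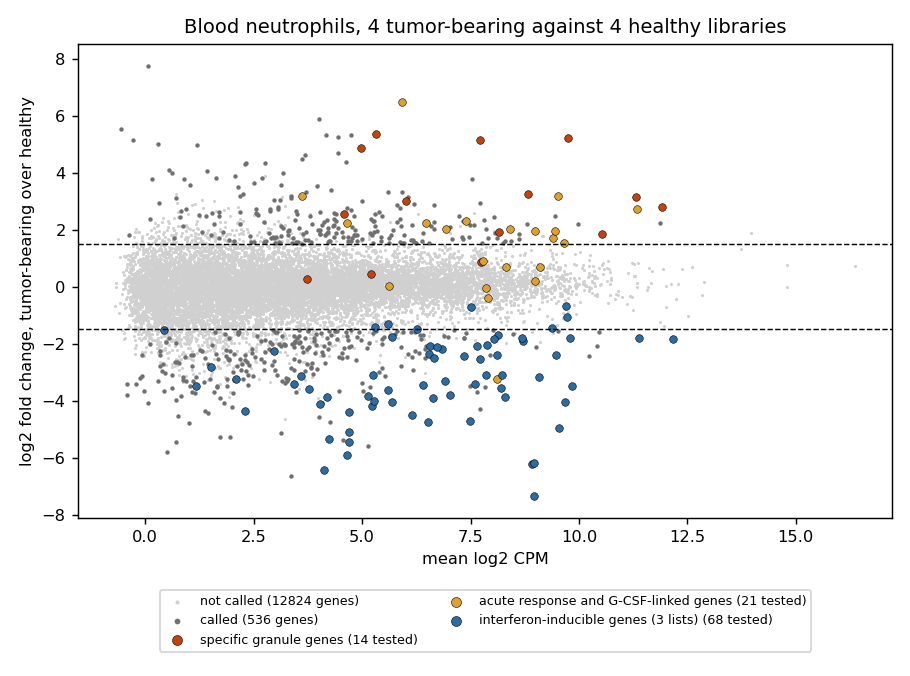
Log2 fold change of tumor-bearing over healthy libraries (4 against 4) by average abundance (log2 CPM, library-scaled counts) for the 13360 genes tested, with the 536 called genes in dark grey and dashed lines at 1.5 in either direction. Specific granule genes (red) all lie above 0, the listed interferon-inducible genes (blue) all lie below 0, and G-CSF-linked genes (yellow) lie mostly above.

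All 14 specific granule genes were tested, and 11 of them rose in tumor-bearing mice, none fell, and their median log2 fold change was 2.89. Among all tested genes, 1.79% were called higher. The summed level of the list was 2464, 1967, 893 and 1163 RPKM in tumor-bearing libraries 1 to 4 and 190, 257, 152 and 301 RPKM in healthy libraries 1 to 4, with no overlap. In bulk RNA, more cells with a transcript and more transcript per cell cannot be told apart. Fold changes on the log2 scale below carry their standard error (SE).

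The granule protein gene Ngp stood at 456, 270, 135 and 271 RPKM in tumor-bearing and at 8.43, 12, 3.31 and 7.70 RPKM in healthy libraries, a log2 fold change of 5.22 (SE 0.42, edgeR adjusted p = 0.00067). Chil3, a chitinase-like lectin, was at 16.2, 7.02, 5.34 and 10.8 RPKM against 0.208, 0.417, 0.196 and 0.171 RPKM, a log2 fold change of 5.34 (SE 0.41, edgeR adjusted p = 0.00067). Its near-identical copy Chil4 followed at a fixed 0.354 to 0.419 times its level in all 8 libraries, so reads of the pair may have been split in counting. Ltf, which encodes the iron-binding lactoferrin, was at 30.3, 11.4, 21.1 and 33.8 RPKM against 0.733, 1.47, 0.288 and 0.506 RPKM (log2 fold change 5.13, SE 0.50, edgeR adjusted p = 0.00134). In each of these genes the lowest tumor-bearing library lay far above the highest healthy one. Camp, the cathelicidin peptide precursor, varied most within groups, at 20.8, 5.79, 8.60 and 30.1 RPKM against 0.110, 1.71, 0.350 and 0.252 RPKM (log2 fold change 4.86, SE 0.81, edgeR adjusted p = 0.00868).

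Lcn2, the siderophore-binding lipocalin 2, was at 599, 396, 188 and 274 RPKM against 26.9, 44.6, 24.1 and 69.7 RPKM (log2 fold change 3.14, SE 0.42). Mmp8, the neutrophil collagenase, was at 904, 833, 287 and 272 RPKM against 70.6, 91.4, 60.7 and 110 RPKM (log2 fold change 2.78, SE 0.40). For both, and for Cd177, a surface glycoprotein stored in these granules, tumor-bearing libraries 1 and 2 were above libraries 3 and 4. Cd177 was at 100, 73.2, 38.2 and 38.9 RPKM against 3.85, 7.38, 5.32 and 9.79 RPKM (log2 fold change 3.25, SE 0.38). Smaller changes were 3.00 for the WAP-domain gene Wfdc21, 2.54 for Olfm4 (olfactomedin 4), 1.91 for Cybb (the oxidase subunit gp91phox) and 1.83 for Anxa1 (annexin A1) on the log2 scale, all without overlap. Edge cases were Ceacam1, at a log2 fold change of 0.86 (edgeR adjusted p = 0.0477) under the fold threshold, and Cyba at 0.43 and an adjusted p of 0.648. All 11 genes were also called among the libraries without Xist and when healthy libraries 1 and 2 were left out, 10 when healthy libraries 3 and 4 were left out, and 6 among the libraries with Xist, where each group had 2 samples.

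**Figure D3:**
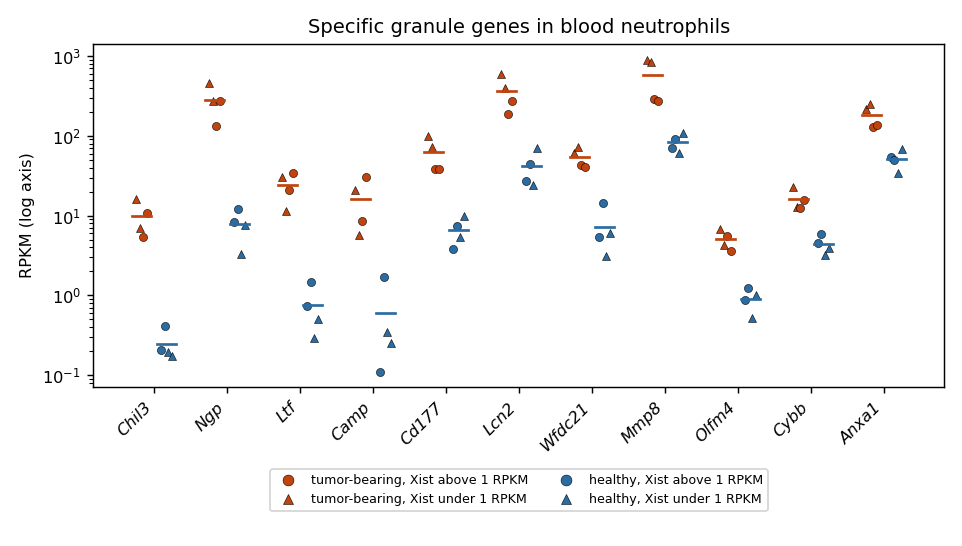
RPKM (log axis) of the 11 specific granule genes that were called, 1 point per library (circles, Xist above 1 RPKM; triangles, under 1 RPKM) and a bar at the group mean. The tumor-bearing (red) and healthy (blue) libraries do not overlap for any of the 11 genes, against 6.38% of all tested genes with every tumor-bearing library above every healthy one.

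The promoters of 2 genes show the letters on which granule factors of the C/EBP family act. The 250 bases before the RefSeq start site in GRCm38.p6 were searched on both strands for TTGCNNAA, a short form of the C/EBP site, and the match is in capitals, with Ltf at chr9:111019042-111019291 (plus strand) and Mmp8 at chr9:7558179-7558428 (plus strand).
Ltf: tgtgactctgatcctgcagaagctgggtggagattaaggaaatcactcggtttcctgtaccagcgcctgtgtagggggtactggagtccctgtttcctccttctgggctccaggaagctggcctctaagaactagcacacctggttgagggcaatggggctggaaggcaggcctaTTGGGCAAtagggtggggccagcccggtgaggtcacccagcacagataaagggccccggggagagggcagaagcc
Mmp8: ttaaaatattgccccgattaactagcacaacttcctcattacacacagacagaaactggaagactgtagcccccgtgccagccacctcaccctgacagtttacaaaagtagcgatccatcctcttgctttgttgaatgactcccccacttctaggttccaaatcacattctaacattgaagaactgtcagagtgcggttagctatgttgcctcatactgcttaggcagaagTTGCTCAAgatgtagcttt
Such a match was present in 5 of the 12 specific granule genes with a listed promoter (41.7%; Anxa1, Lcn2, Ltf, Mmp8 and Ngp), in 23 of 174 genes called higher (13.2%) and in 2930 of 27025 genes in all (10.8%). A match describes the sequence and does not show binding.

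The azurophil granule list of 8 genes holds contents of the first granules and genes that act on them, and only 2 passed the count filter. These were Serpinb1a, an inhibitor of neutrophil serine proteases, and Ctsc, the protease that activates them. Both rose, against 1.79% of all tested genes. The filter can pass a gene on its counts in 1 group alone, so 2 of 2 says little about the list. Among the libraries with Xist 0 of the 2 were called, and among those without Xist 2. When healthy libraries 1 and 2 or healthy libraries 3 and 4 were left out, 1 was called. Serpinb1a was at 5.69, 3.13, 1.56 and 1.80 RPKM against 0.337, 0.417, 0.147 and 0.186 RPKM (log2 fold change 3.53, SE 0.46), and Ctsc at 1.3, 1.85, 0.902 and 1.67 RPKM against 0.779, 0.366, 0.216 and 0.540 RPKM (log2 fold change 1.62, SE 0.39). The proteases themselves were close to 0: Mpo, Elane, Prtn3 and Ctsg, chosen after their values were seen, had at most 25 counts in any library. Of 11 gelatinase granule and secretory vesicle genes tested, 2 rose (18.2%, against 1.79% of all tested genes) and none fell. These were Mmp25, a membrane-anchored metalloproteinase (29.0, 28.6, 16.2 and 17.8 RPKM against 5.70, 6.48, 4.21 and 6.71 RPKM), and the formyl peptide receptor Fpr1. Mmp9, gelatinase B itself, was at 127, 116, 89.2 and 113 RPKM against 46.4, 93.4, 46.4 and 75.7 RPKM, and the groups overlapped (log2 fold change 0.82, SE 0.21, edgeR adjusted p = 0.0444, not called). Of the 17 cell cycle genes tested, edgeR, limma-voom and DESeq2 each called 0, and 1 had an unadjusted edgeR p under 0.05.

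Of 23 genes linked to G-CSF and the acute response, 13 rose (56.5%) and 1 (Cd274) fell (4.35%), with a median log2 fold change of 1.94. Over all tested genes, 1.79% were called higher and 2.22% lower. Lcn2 and Wfdc21 are in both this list and the specific granule list. Prok2, the chemokine-like prokineticin 2, had the highest fold change of any called gene whose average log2 CPM was 4 or more, at 15.1, 17.7, 8.28 and 23.5 RPKM in tumor-bearing and 0.131, 0.369, 0.0174 and 0.252 RPKM in healthy libraries (log2 fold change 6.47, SE 0.67, edgeR adjusted p = 0.00152). Ifitm6 was at 999, 555, 245 and 256 RPKM against 37.3, 37.1, 44.7 and 103 RPKM (log2 fold change 3.17, SE 0.53). The resistin-like gene Retnlg was at 2374, 2073, 2519 and 1270 RPKM against 633, 551, 217 and 448 RPKM (log2 fold change 2.22, SE 0.31), and its copies Retnlb and Retnla kept 0.101 to 0.109 and 0.260 to 0.30 times its level in every library, so reads of the 3 genes may have been shared in counting. The stefin A cluster on chromosome 16, cysteine protease inhibitors of neutrophils, added 6 called members of the list. Stfa2l1 was at 498, 354, 995 and 289 RPKM against 183, 78.0, 100 and 209 RPKM, and Gm5483 at 122, 107, 242 and 71.2 RPKM against 30.7, 19.7, 19.9 and 41.7 RPKM, with log2 fold changes of 1.94 (SE 0.48) and 2.31 (SE 0.43). Tumor-bearing library 3 was highest for both, and reads may be shared among the near-identical stefins. Stfa2, Stfa2l1 and Stfa3 each lost their call when any of 6 single libraries was left out. Asprv1, Chil1 and S100a6 were called at 2.24, 1.69 and 1.54 on the log2 scale, S100a6 with overlapping groups. S100a8, a subunit of calprotectin, was higher in every tumor-bearing library but varied too much to be called (4798, 5096, 14922 and 3988 RPKM against 3805, 1913, 788 and 1768 RPKM, edgeR adjusted p = 0.0651). The 13 came to 3 in the fit of all 40 libraries, 8 without tumor-bearing library 1, tumor-bearing library 2 or healthy library 2, 5 without healthy library 3, and 4 without healthy libraries 1 and 2. Of the 14 called genes, 3 were still called among the libraries with Xist, 10 among those without, and 5 when healthy libraries 3 and 4 were left out.

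Of 20 chemoattractant receptors tested, which guide neutrophils to their targets, 3 rose (15%) and 1 fell (5%), against 1.79% and 2.22% of all tested genes. Of these calls, 2 remained among libraries without Xist and 1 without healthy libraries 3 and 4. Among libraries with Xist, and without healthy libraries 1 and 2, 0 remained. Fpr1 was at 95.2, 101, 74.3 and 52.1 RPKM against 25.9, 24.2, 20.6 and 35.6 RPKM (log2 fold change 1.61, SE 0.25, edgeR adjusted p = 0.00585), and the receptors Cxcr1 (interleukin-8 type chemokines) and Ltb4r1 (leukotriene B4) rose by 1.59 (SE 0.36) and 1.58 (SE 0.28) on the log2 scale. Cxcr2, the main homing receptor for these ligands, was at 506, 514, 623 and 471 RPKM against 561, 386, 372 and 617 RPKM, with overlapping groups and a log2 fold change of 0.15 (SE 0.23). Cxcr3, a receptor for interferon-inducible chemokines, fell but was at most 0.499 RPKM in any library. Csf3r, the G-CSF receptor, was at 173, 218, 300 and 227 RPKM against 363, 309, 296 and 319 RPKM, a log2 fold change of -0.44 (SE 0.22, edgeR adjusted p = 0.273). Of 26 adhesion genes, Cd177 rose (3.85%) and Itgax and Icam1 fell (7.69%), and of 25 pattern receptors 1 rose (4%) and 2 fell (8%). Among the pattern receptors Tlr1, which senses lipopeptides with Tlr2, rose by 2.26 (SE 0.30), and Nod1, a cytosolic sensor of peptidoglycan, and Clec4n fell by 2.23 (SE 0.35) and 1.66 on the log2 scale.

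Enzymes of sugar use showed small rises. Of 27 glycolysis and hypoxia genes tested, 5 rose (18.5%) and none fell, against 1.79% and 2.22% of all tested genes. A positive log2 fold change was seen in 24 and a negative one in 3, and the median was 0.85. Pgk1, phosphoglycerate kinase, was at 2.05, 2.33, 2.20 and 2.65 RPKM against 0.484, 0.928, 0.493 and 0.730 RPKM (log2 fold change 1.86, SE 0.27, edgeR adjusted p = 0.0049). The other 4, P4ha1, Pdk1, Pgam1 and Eno1, were called at 1.58 to 2.00 on the log2 scale, all at under 2 RPKM, and each lost its call when any of 5 or more single libraries was left out. The list had 1 to 3 calls without 1 library and 2 with limma-voom. Outside the list, Adpgk, a glucokinase that uses ADP, changed far more, at 39.5, 30.7, 26.7 and 17.8 RPKM against 3.15, 3.09, 0.728 and 1.91 RPKM (log2 fold change 3.76, SE 0.40, edgeR adjusted p = 0.00174). Ggt1, which cleaves glutathione, was at 4.65, 2.53, 0.752 and 0.683 RPKM against 0.0989, 0.0476, 0.0136 and 0.0596 RPKM (log2 fold change 5.30, SE 0.76). Its healthy values were close to 0, so the size of this fold is uncertain.

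Interferon-inducible genes were the clearest group among those that were lower. All 39 tested genes of the type I interferon list had a negative log2 fold change, 26 fell, none rose, and the median was -3.11, while 2.22% of all tested genes were called lower. For 33 of the 39, every tumor-bearing library lay below every healthy one, against 7.75% of all tested genes. Not all genes named for interferon fell. Outside this list, the interferon-induced transmembrane genes Ifitm6 and Ifitm7 were called higher, Ifitm7 at 1.52 on the log2 scale. Ifitm1 was at 0.68 without overlap (edgeR adjusted p = 0.0353), under the fold threshold, while Ifitm3 was at -0.40 and not called. The healthy libraries were far apart: the list summed to 796 and 683 RPKM in healthy libraries 1 and 2 and to 2023 and 3961 RPKM in healthy libraries 3 and 4, against 381, 347, 406 and 394 RPKM in tumor-bearing libraries 1 to 4. Healthy libraries 3 and 4 were those without Xist, with the lowest mitochondrial shares and few platelet transcripts.

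Ifit3, one of the interferon-induced proteins with tetratricopeptide repeats, was at 1.11, 0.866, 1.91 and 2.05 RPKM in tumor-bearing and 25.4, 20, 116 and 270 RPKM in healthy libraries (log2 fold change -6.21, SE 0.95, edgeR adjusted p = 0.00583). Ifit2 was at 0.359, 0.405, 0.175 and 0.353 RPKM against 7.38, 6.58, 51.8 and 132 RPKM (log2 fold change -7.34, SE 1.10, edgeR adjusted p = 0.00573), the lowest fold change of any called gene whose average log2 CPM was 4 or more. The copy Ifit3b kept 0.895 to 0.967 times the level of Ifit3, so reads of the pair may have been split in counting, and the pair may be 1 call. Isg15, a ubiquitin-like modifier, was at 1.68, 1.47, 1.14 and 2.22 RPKM against 6.47, 11.9, 38.3 and 84.7 RPKM (log2 fold change -4.48, SE 0.79). Its protease Usp18 was at 1.59, 1.54, 2.36 and 2.46 RPKM against 10.7, 6.37, 32.1 and 59.4 RPKM (log2 fold change -3.81, SE 0.70). For each of these the order within healthy mice was the same, with libraries 1 and 2 between the tumor-bearing values and libraries 3 and 4.

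The factors that carry the signal fell as well. Irf7, which amplifies interferon production, was at 2.14, 1.62, 1.16 and 4.15 RPKM against 6.10, 8.26, 28.8 and 50.4 RPKM (log2 fold change -3.41, SE 0.73), and Stat2 fell by 2.52 (SE 0.63) on the log2 scale. The antiviral enzyme Rsad2 (viperin) and the chemokine Cxcl10 fell by 3.47 (SE 0.77) and 4.40 (SE 0.87). Without healthy libraries 3 and 4, 8 of the 26 were still called, and Ifit3 was at -3.74 (edgeR adjusted p = 0.0145), so that the size of the difference rested on those libraries. Among the libraries with Xist 3 were called (Ifit2, Ifit3 and Ifit3b), and among those without Xist all 26. Calls of the list came to 14 with limma-voom, 16 with Xist as a covariate, and 6, 7, 15 and 12 without tumor-bearing library 1, 2 or 4 or healthy library 3.

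**Figure D4:**
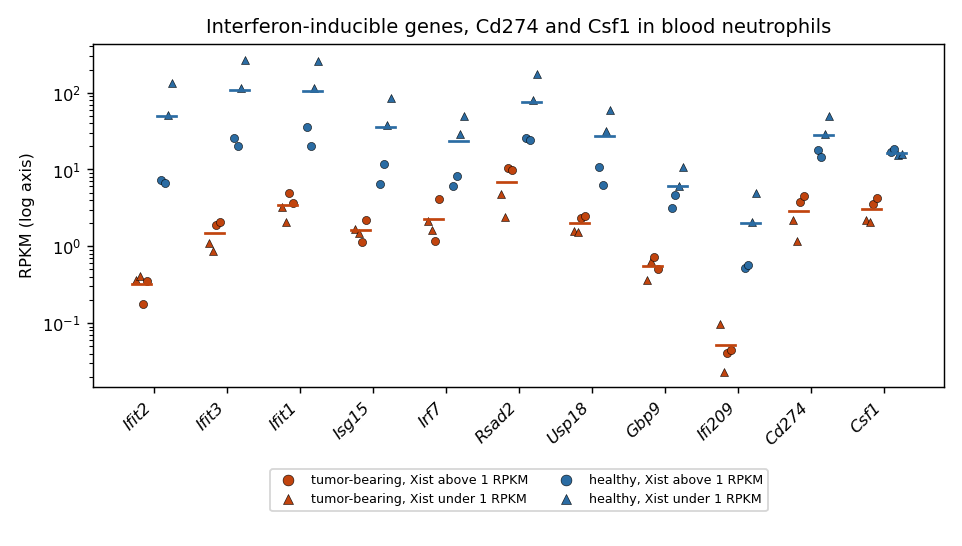
RPKM (log axis) of 9 interferon-inducible genes, Cd274 and Csf1, 1 point per library (circles, Xist above 1 RPKM; triangles, under 1 RPKM) and a bar at the group mean. Healthy libraries without Xist (blue triangles, libraries 3 and 4) lie above those with Xist for the interferon-inducible genes and Cd274, and not for Csf1, where all 4 were at 15.3 to 18.4 RPKM.

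The promoters of Ifit3 (chr19:34583279-34583528, plus strand), Isg15 (chr4:156200819-156201068, minus strand) and Rsad2 (chr12:26456453-26456702, minus strand) are given as the same 250 bases before the start site, because these genes moved together. Capitals mark GAAA, any 2 bases and GAAA again, the core of the interferon-stimulated response element, on either strand, and overlapping matches run together.
Ifit3: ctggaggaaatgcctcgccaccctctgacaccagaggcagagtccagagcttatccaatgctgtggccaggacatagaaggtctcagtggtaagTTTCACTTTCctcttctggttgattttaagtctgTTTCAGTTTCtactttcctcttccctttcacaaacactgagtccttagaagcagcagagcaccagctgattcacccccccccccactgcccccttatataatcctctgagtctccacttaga
Isg15: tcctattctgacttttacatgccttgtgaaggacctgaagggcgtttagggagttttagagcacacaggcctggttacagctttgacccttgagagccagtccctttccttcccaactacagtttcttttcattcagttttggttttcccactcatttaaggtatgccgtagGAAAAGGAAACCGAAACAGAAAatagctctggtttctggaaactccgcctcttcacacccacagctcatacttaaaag
Rsad2: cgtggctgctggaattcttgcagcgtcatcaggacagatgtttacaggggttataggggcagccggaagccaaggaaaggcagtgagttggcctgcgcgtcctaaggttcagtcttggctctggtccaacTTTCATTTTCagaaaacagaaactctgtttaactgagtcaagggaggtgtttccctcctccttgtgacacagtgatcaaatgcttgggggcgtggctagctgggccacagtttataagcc
The pair of repeats was in 14 of the 30 type I interferon genes with a listed promoter (46.7%), in 38 of 204 genes called lower (18.6%), in 3 of 174 called higher (1.72%) and in 936 of 27025 genes in all (3.46%). Ifit3 held 2 matches, Isg15 held 3 overlapping ones and Rsad2 held 1.

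A further pair of interferon-inducible families fell. Among 18 GTPases of the guanylate-binding and immunity-related families, which attack the vacuoles of microbes, 13 fell (72.2%) and none rose. Their median log2 fold change was -2.95, and 2.22% of all tested genes were called lower. Gbp9 was at 0.363, 0.634, 0.727 and 0.498 RPKM against 3.10, 4.63, 6.06 and 10.7 RPKM (log2 fold change -3.46, SE 0.44, edgeR adjusted p = 0.0033), and its annotated span overlaps those of Gbp4 and Gbp8 on the same strand, so reads may be shared. Of 12 tested Ifi200 genes, DNA sensors and their relatives on chromosome 1, 10 fell (83.3%) and none rose, with a median of -4.12. Ifi209 was at 0.0968, 0.0233, 0.0406 and 0.0439 RPKM against 0.514, 0.572, 2.09 and 4.89 RPKM (log2 fold change -5.36, SE 0.88). Within tumor-bearing mice Ifi204 was at 1.34 and 1.27 RPKM in libraries 1 and 2 and at 0.238 and 0.105 RPKM in libraries 3 and 4, against 2.09, 2.33, 11.1 and 25.4 RPKM. Without healthy libraries 3 and 4 the called genes came to 5 GTPases and 1 Ifi200 gene. The GTPase calls came to 7 with limma-voom, 8 in the fit of all 40 libraries, 3 with limma on log2(RPKM + 1), and 6 and 8 without tumor-bearing library 1 or 2. The Ifi200 calls came to 2 with at least 10 counts in every library, and to 4, 4, 5, 5 and 6 without tumor-bearing library 1, 2 or 4 or healthy library 3 or 4. With limma-voom 0 of the 12 were called, while all 12 had an unadjusted p under 0.05. Among the libraries with Xist, 2 in each group, Gbp9 was at -2.40 (edgeR adjusted p = 0.0684) and Ifi209 at -3.47 (edgeR adjusted p = 0.117). The pair of GAAA repeats was in 10 of 11 GTPase and 8 of 11 Ifi200 promoters.

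Genes of antigen display leaned the same way with fewer calls. All 20 MHC class I genes had a negative log2 fold change, with a median of -1.54. Calls were made for 5, all lower (25%, against 2.22% of all tested genes): H2-Q10, H2-Q4, Tap1, Psmb8 and Nlrc5. B2m, the shared light chain, was at 443, 453, 530 and 670 RPKM against 799, 891, 1119 and 2121 RPKM (log2 fold change -1.23, SE 0.35, edgeR adjusted p = 0.0654, not called). The class I calls came to 3 with limma-voom, 9 with DESeq2, and 3 and 2 without tumor-bearing library 3 or 4. Without tumor-bearing library 1 or 2 or healthy library 3 or 4, edgeR called 0 of the 20, and 14, 13, 14 and 12 had an unadjusted p under 0.05. Without healthy libraries 3 and 4 together edgeR called none of the 20, and 3 had an unadjusted p under 0.05. Cd274, which encodes the T cell inhibitor PD-L1, was at 2.21, 1.17, 3.79 and 4.46 RPKM against 18, 14.4, 29.2 and 49.8 RPKM (log2 fold change -3.25, SE 0.56, edgeR adjusted p = 0.00964). It was at -2.27 (edgeR adjusted p = 0.0599) without healthy libraries 3 and 4.

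Some genes that fell did not share the split within healthy mice. Csf1, the macrophage growth factor, was at 2.19, 2.06, 3.60 and 4.23 RPKM against 16.9, 18.4, 15.3 and 15.8 RPKM (log2 fold change -2.39, SE 0.28, edgeR adjusted p = 0.00231), and was called under all 25 alternatives. Cd300a, an inhibitory receptor, was at 5.61, 6.14, 7.77 and 10.1 RPKM against 22.6, 29.6, 23.3 and 21.2 RPKM (log2 fold change -1.65, SE 0.23, edgeR adjusted p = 0.0038). Itgax, the integrin CD11c, was at 1.04, 1.38, 2.23 and 2.42 RPKM against 5.52, 8.28, 6.39 and 6.11 RPKM (log2 fold change -1.82, SE 0.30). In none of these 3 genes did healthy libraries 3 and 4 both stand above libraries 1 and 2. Pmaip1, a BH3-only death gene, was at 0.224, 0.507, 2.81 and 0.954 RPKM against 5.41, 9.20, 9.39 and 8.68 RPKM (log2 fold change -2.78, SE 0.68), while Bcl2l1, which encodes the survival protein BCL-XL, was at 2.06, 1.28, 0.912 and 0.934 RPKM against 0.312, 0.579, 0.325 and 0.250 RPKM (log2 fold change 1.87, SE 0.32). They were the only calls among 22 genes of the Bcl2 family and cell death (4.5% in each direction). Over all tested genes, 1.79% were called higher and 2.22% lower. The B cell genes Ighd and Ighm fell too, beside the B cell marker sums given above.

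The next list holds factors by which neutrophils can restrain T cells. The study looked at several of them in these libraries, so the list is no independent choice. Of 18 genes tested, 3 rose (16.7%; Nos2, Olr1 and Lgals3) and 1 fell (5.56%; Cd274), against 1.79% and 2.22% of all tested genes. Nos2, inducible nitric oxide synthase, was at 2.62, 2.66, 0.373 and 0.726 RPKM against 0.0141, 0.0456, 0.0243 and 0.0194 RPKM (log2 fold change 5.87, SE 0.69, edgeR adjusted p = 0.00231). The healthy values of Nos2 were close to 0, so the size of its fold is uncertain. Olr1, the lectin LOX-1, and Lgals3, galectin 3, rose by 1.63 (SE 0.32) and 1.53 (SE 0.23) on the log2 scale. Arg2, an arginase, was at 33.4, 35.0, 31.7 and 36.8 RPKM against 31.3, 33.2, 24.4 and 37.2 RPKM, with overlapping groups, and Arg1 was at most 0.249 RPKM in any library and not tested. The log2 fold change was -0.44 (SE 0.15) for Entpd1, 1.33 (SE 0.50) for Nt5e, -0.94 (SE 0.84) for Il10 and -0.57 (SE 0.39) for Tgfb1, none of them called. Ptgs2, cyclooxygenase 2, was at 0.810 and 1.44 RPKM in tumor-bearing libraries 1 and 2, at 12.4 and 16.1 RPKM in libraries 3 and 4, and at 14.0 to 29.2 RPKM in healthy libraries. Of 24 metalloproteinase and TGF-beta genes Mmp8 and Mmp25 rose (8.33%, against 1.79% of all tested genes) and none fell.

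Several lists gave no call in edgeR. Among 22 tested genes of the interleukin-1 family and inflammasome, 7 had an unadjusted p under 0.05, as 21.9% of all tested genes did, and limma-voom called 2. The same numbers were 4 and 0 of 15 for NF-kappaB feedback, 5 and 0 of 16 for heat shock genes, and 3 and 1 of 12 for mitochondrially encoded genes, and DESeq2 called 0, 1, 0 and 1 in these lists. Il1b, the main secreted cytokine of the first list, was lower in every tumor-bearing library, at 98.0, 170, 364 and 312 RPKM against 581, 694, 556 and 725 RPKM (log2 fold change -1.36, SE 0.39, edgeR adjusted p = 0.0644).

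Blood monocytes of the same pair of mouse groups carried the same strain, transgene and tamoxifen difference. They had 32 calls among 15313 genes tested (0.209%), 14 higher (0.0914%) and 18 lower (0.118%). Healthy monocyte libraries 2, 3 and 4 carry 2 animal numbers each in their titles, so they may pool animals. Healthy monocyte libraries 1 and 2 held both Xist (5.12 and 9.81 RPKM) and the Y-linked Eif2s3y (4.35 and 1.86 RPKM), so they may mix sexes. The part of this in the number of calls was not tested. Of the 239 genes higher in neutrophils, 187 were tested in monocytes, 119 had the same sign and 6 were called higher (Abca13, Atp11a, B4galt6, Lcn2, Ltf and Ngp). Of the 297 lower, 258 were tested, 198 had the same sign, 8 were called lower (Gbp9, Ifit2, Ifit3, Ifit3b, Oas1b, Tgtp1, Tgtp2 and Usp18) and 1 was called higher. All 40 type I interferon genes were negative in monocytes too, with a median of -1.55 and 6 calls, and the difference between the cell types, tested as an interaction over the 16 blood libraries, passed an adjusted p of 0.05 for 0 of them in edgeR and limma-voom, with an unadjusted p under 0.05 for 14. Over all 16817 genes it did for 163 (0.969%), and for 69, 41, 80, 97 and 49 genes without tumor-bearing library 1 or 2 or healthy library 1, 2 or 3. Ifit2 in monocytes was at 3.30, 1.77, 1.12 and 1.52 RPKM in tumor-bearing and 37.8, 17.7, 10.1 and 28.3 RPKM in healthy mice.

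Specific granule genes differed between the cell types in both directions. Cd177, Cybb and Anxa1 rose more in neutrophils, by 3.52 (edgeR adjusted p = 0.00276), 2.35 (edgeR adjusted p = 0.000899) and 1.96 (edgeR adjusted p = 0.0184) on the log2 scale. Cd177 in monocytes was at 8.73 to 13.3 RPKM in tumor-bearing and 8.89 to 19.2 RPKM in healthy mice. Ngp rose more in monocytes, where it was at 63.0, 22.6, 33.1 and 50 RPKM against 0.0617, 0.0551, 0.0253 and 0.0195 RPKM, with at most 5 counts in healthy libraries (difference -4.92, edgeR adjusted p = 0.00164). Camp had 0 counts in all healthy monocyte libraries, so no fold is given. Ngp in monocytes stayed below its level in neutrophils of the same mouse group. S100a8 in monocytes was also higher in tumor-bearing mice, at 31.0, 49.4, 68.3 and 49.9 RPKM against 2.11, 9.37, 2.88 and 1.78 RPKM. Within tumor-bearing mice the genes did not move together, as monocyte library 1 was highest for Ngp and lowest for S100a8. Whether neutrophils in the monocyte gate had a part in these levels was not tested. Ly6g rose in sorted neutrophils, at 38.6, 39.3, 13.9 and 22.3 RPKM against 1.47, 3.62, 1.73 and 8.28 RPKM (log2 fold change 2.90, SE 0.56, edgeR adjusted p = 0.0157), and not in monocytes, with a difference of 4.89 (edgeR adjusted p = 0.00879), but its call was lost without tumor-bearing library 2 or healthy library 3. Adpgk, Flot2, Tlr1 and Upp1 also rose more in neutrophils, by 3.97, 2.94, 2.99 and 4.5 on the log2 scale.

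**Figure D5:**
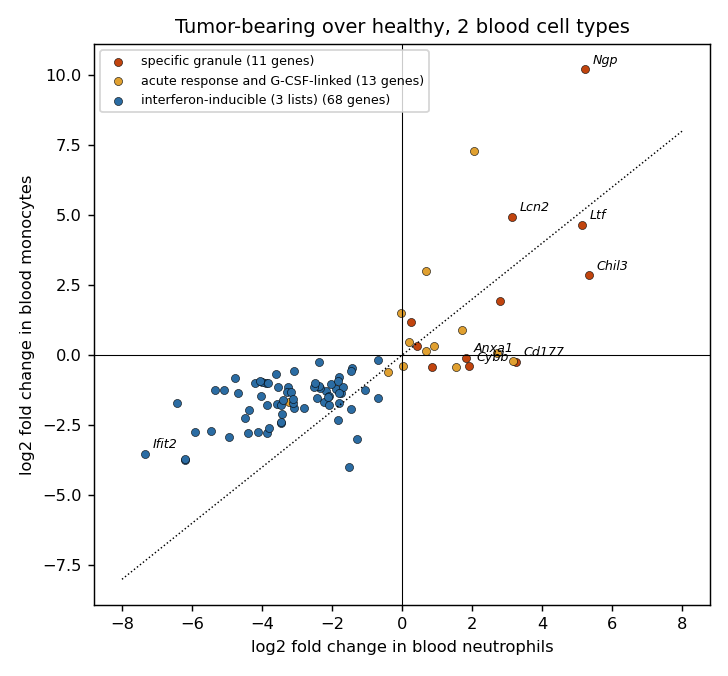
Log2 fold change of tumor-bearing over healthy mice in blood neutrophils (x) and blood monocytes (y) for genes of 3 gene groups tested in both, with a dotted line of equal change and without Camp, which was at 0 counts in healthy monocytes. Interferon-inducible genes (blue) lie below 0 on both axes, G-CSF-linked genes (yellow) spread on the y axis, and granule genes (red) run from Cd177 near 0 to Ngp near 10 in monocytes.

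In the colon, tumor was compared with healthy tissue, and 15.4% of the genes tested in epithelial cells and 8.4% of those tested in stromal cells were called in either direction. Of the 239 genes higher in neutrophils, 172 were tested in epithelial cells, with 26 called higher and 25 lower. In stromal cells 201 were tested, with 27 called higher and 6 lower. Of the 297 genes lower in neutrophils, 216 were tested in epithelial cells, with 25 called lower and 17 higher. In stromal cells 265 were tested, with 17 called lower and 17 higher. In all, 13 were also called in the same direction in both epithelial and stromal cells: Npl, Abca13, Ccdc125, Ifitm7, Lcn2, Rhov, Bcl2l1, Asprv1, Olr1 and Ltf higher, and Ifi27l2a, Ifi27l2b and Nr3c2 lower.

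The positions of the called genes were tabulated because the groups differ in strain and neighbouring genes share a haplotype. Of 533 windows of 5 Mb with tested genes, 66 held 3 or more called genes, and these held 296 (55.5%) of the called genes placed in windows. In 29 of the 66 all calls went in 1 direction. The most calls were on chromosome 16, 35 to 40 Mb, with 15 of 54 tested genes called, 14 of them higher and mostly stefins. The next was chromosome 1, 170 to 175 Mb, with 13 of 75 called, all lower and mostly Ifi200 genes. The other windows with 7 or more calls included those with Gbp genes on chromosome 5, Slfn genes on chromosome 11 and Ifit genes on chromosome 19. Since gene families sit in clusters and copies share reads, family, haplotype and counting cannot be told apart here. By chromosome, 1.76% (chromosome 18) to 7.4% (chromosome 16) of tested autosomal genes were called. Of 7 tested genes known to differ between C57BL/6 and other laboratory strains, edgeR called 0, limma-voom called 1 and DESeq2 called 0. An unadjusted edgeR p under 0.05 was seen for 3, as for 21.9% of all tested genes. The log2 fold change was negative for 6 of the 7, with a median of -1.085. For 2 the groups did not overlap, against 14.1% of all tested genes. In edgeR 1 passed an adjusted p of 0.05 and missed the call by the fold threshold.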

How the data were processed

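RNA of sorted blood neutrophils was amplified to double-stranded cDNA (NuGEN Ovation) before library preparation (TruSeq Nano DNA), which does not mark strand. Alignment by the authors used Bowtie 2 and mm10 within HTSstation, and the submitters' processing notes also name bcl2fastq and limma. The authors deposited expected counts per Ensembl gene without normalization, and RPKM values. The annotation release and the treatment of reads that map to several places are not given in the sources used here, so values of near-identical copies and of genes that overlap on either strand are uncertain.

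The expected counts of 45706 genes were rounded, normalized with TMM, filtered with filterByExpr and tested in edgeR 4.0.16 (R 4.3.3, quasi-likelihood F test with robust dispersion), 4 T_PG against 4 WT_PG libraries. The call rule, adjusted p under 0.05 with a log2 fold change beyond 1.5 in either direction, is that of the study, which used limma-voom. Symbols came from GENCODE M21 for 45143 genes. No 2 libraries of a group agreed within counting noise. Levels are RPKM as deposited, and the scale of RPKM to total counts was 0.794 in healthy library 3 and 0.951 to 1.08 in the other libraries. Single genes were compared by a 2-sided exact permutation test over 70 arrangements. In simulated counts for this comparison (12883 genes), edgeR recovered 75% of genes changed by a log2 fold of 2 and 97% of those changed by 4, and 6.52% of its calls were false.

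The members and the 42 gene lists (816 entries, 7 without a match) were chosen with earlier results of these data known, and no list was tested. Genes were named where they were called members of a list, among the 12 largest changes in each direction whose average log2 CPM was 4 or more and whose groups did not overlap, named by the study, markers, among the 3 most abundant of a list, or called in a 5 Mb window with 3 or more calls. Genes also called in monocytes or in both colon cell types were named too, and Ceacam1, Cyba, Mpo, Elane, Prtn3 and Ctsg were chosen after their values were seen. Promoters came from RefSeq (GRCm38.p6), in which 27025 genes had one. Same-numbered libraries did not deviate together (correlations of -0.151, 0.107, -0.082 and -0.01), so the numbers were not taken as pairs. Alternatives were DESeq2 1.42.0, limma-voom from limma 3.58.1, size factors by RLE, other count filters, fits of 16 or 40 libraries, the replicate block, Xist as a covariate, limma on log2 RPKM, no mitochondrial genes, no fold threshold and leaving out each library. Fits without healthy libraries 1 and 2 or 3 and 4, and of libraries with or without Xist, were chosen after seeing the data. Some genes are not reported here.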

Additional observations from a re-analysis of the deposited data

Results flagged for a closer look

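Among 196 groups of 4 values checked for the lists and genes named above, 7 held 1 library whose gap to its nearest neighbour exceeded Dixon's critical share of the group's range, where chance gives about 1 in 20. Healthy library 2 stood highest for Chil3 (0.849), Camp (0.85) and Pgam1 (0.905), and healthy library 4 for Ifitm6 (0.883). Tumor-bearing library 3 stood highest for S100a8 (0.899) and Eno1 (0.845), and tumor-bearing library 2 lowest for Nlrc5 (0.85).

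The response differed between neutrophils and monocytes of blood for 13 genes named above (edgeR interaction over 16 libraries, adjusted p under 0.05). The neutrophil minus monocyte difference in log2 fold change was -4.92 for Ngp, and 3.52, 2.35, 1.96 and 4.89 for Cd177, Cybb, Anxa1 and Ly6g. It was 3.41 for Ifitm6, 2.99 for Tlr1, 2.62 for P4ha1, 3.97 for Adpgk, 6.88 for Ggt1, 2.94 for Flot2 and 4.5 for Upp1, all larger in neutrophils, and -4.08 for Ifi209, which fell more in neutrophils.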

How the results depend on the processing

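Against 239 genes called higher and 297 lower, the edgeR fit of all 40 libraries called 158 higher, limma on log2(RPKM + 1) called 69 and 61, no fold threshold gave 480 higher, and DESeq2 called 521 lower. With the replicate block 176 were lower, 2 Ifi200 genes were called in place of 10 and 8 G-CSF-linked genes in place of 13, and the difference between the cell types passed for 75 genes in place of 163. The replicate numbers did not pair the libraries, so the cause of this loss was not tested. Leaving out 1 library gave 129 to 269 higher, 128 to 335 lower, and 41 to 173 genes for the difference between the cell types. Windows with 3 or more calls were 46 at 2 Mb, 66 at 5 Mb and 78 at 10 Mb. Chosen after seeing the data, fits without healthy libraries 3 and 4 gave 125 and 158, libraries with Xist 20 and 15, and libraries without Xist 451 and 623.

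Of the specific granule list, 7 genes were called in the fit of 40 libraries and 6 among libraries with Xist, in place of 11. Of the type I interferon list, 14 were called by limma-voom and 16 with Xist as a covariate, in place of 26, and 6 to 34 when 1 library was left out, 8 without healthy libraries 3 and 4, and 3 among libraries with Xist. For the 71 called genes named above, 1349 of 1767 fits under an alternative kept the call, 418 lost it and 0 changed direction, and 10 of the 71 genes were called under every alternative fitted. Genes that were not called changed sign: Cxcr2, at most 0.34 without 1 library (healthy library 4), to -0.01 without healthy library 2 and -0.13 among libraries without Xist, Arg2 to -0.02 among libraries without Xist, and Il10 and Ptgs2 to 0.52 and 0.09 among libraries with Xist. With 4 libraries a group, changes of low-count genes are measured with less precision, and the median SE over all tested genes was 0.419.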
